A study of Arabidopsis thaliana with 12 samples.

Results

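AT3G23840, annotated as CER26-LIKE, and ACLA-2 are 2 genes of lipid supply that were followed here in anthers of Arabidopsis thaliana. Each was represented by 1 probe set on the Affymetrix ATH1 array, 2 of the 22746 probe sets that were not controls and of the 13513 that the platform annotation gives to a single gene. They were chosen by name with their signal in these arrays already known from an earlier analysis, so their levels and differences are given as a description, with no test. Both exceeded the low-signal limit of 25.5 on all 12 arrays.

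The study compared anthers of ms35, a mutant of the MYB26 transcription factor gene whose anthers fail to open, with those of a wild-type control. The tissue was anthers with their filaments, with 2 arrays for each genotype at each of 3 labelled stages, called PMI (for pollen mitosis I), bicellular, and PMII (for pollen mitosis II). The ms35 plants carried a knock-out in the Ler-0 background, while the control is given as Glabra in its source and as Ler in its titles, so a difference between the genotypes is a difference between these lines. All plants grew at 22 °C under 22 h of light and 2 h of night. The labels do not say whether replicates came from separate plants, and p-values therefore cover no more than the variation among these arrays, part or all of which may be technical.

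Surface waxes and lipids of the pollen coat of plants are built from fatty acids that are lengthened in the endoplasmic reticulum. Proteins of the CER2 family, members of the BAHD acyltransferase superfamily, act with the condensing enzyme CER6 to produce the longest of these chains, and CER26 is a family member known from leaves. The carbon for lengthening comes from cytosolic acetyl-CoA, which ATP-citrate lyase makes from citrate. That enzyme is assembled from A subunits, encoded by ACLA-1, ACLA-2 and ACLA-3, and B subunits, encoded by ACLB-1 and ACLB-2. Acetyl-CoA from the same source also feeds sterol and flavonoid synthesis.

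The arrays had been scaled by the authors to a common mean. Their medians ran from 37.3 to 45.2 signal units, and replicate arrays correlated across probe sets with r from 0.910 to 0.941. RNA integrity was read from GAPDH controls at the 3' and 5' ends of the transcript, whose ratio lay between 1.29 and 2.86. Its top values were 2.86 (replicate 2 of wild type PMII), 2.37 (replicate 2 of ms35 bicellular) and 2.11 (replicate 2 of ms35 PMI). The summed signal of late pollen genes was highest at labelled PMI and lowest at labelled PMII, against the usual order of these stages. Stage names are therefore used as labelled, and a rise or fall along them is not read as a direction in development. With whole anthers on the array, fewer cells of a type and less RNA per cell cannot be told apart.

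AT3G23840 was low at PMI in both genotypes and high at the bicellular stage and PMII in wild type, with much smaller values there in ms35. In wild type its signal was 50.2 and 40.7 at PMI, 558 and 481 at the bicellular stage, and 1362 and 795 at PMII. In ms35 it was 55.0 and 56.0 at PMI, 103 and 66.5 at the bicellular stage, and 329 and 236 at PMII. Both ms35 arrays lay below both wild type arrays at the bicellular stage and at PMII. At PMI they lay slightly above them, by a log2 difference of 0.28 ± 0.29 (SE), about the size of its error. The lack of overlap is a description of 2 arrays against 2, and its share over all probe sets is not given here.

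**Figure D1:**
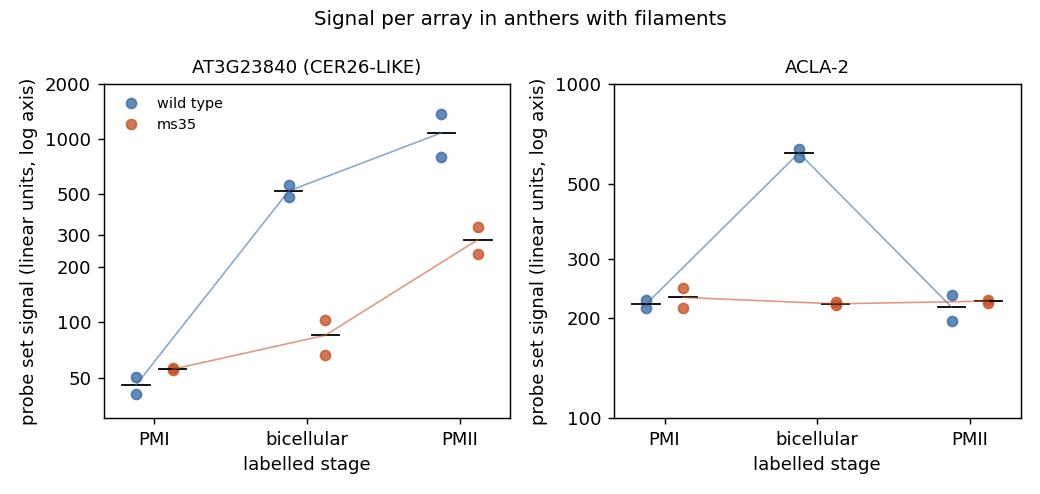
Probe set signal of AT3G23840 and ACLA-2 (linear units on a log axis) at the 3 labelled stages. Points are single arrays, black bars are means of 2 arrays and thin lines join the means. AT3G23840 has means of 45.4 at PMI and 1079 at PMII in wild type, and of 55.5 and 283 in ms35. ACLA-2 peaks at 621 in wild type bicellular anthers only.

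At the bicellular stage wild type AT3G23840 had a mean signal of 520 ± 54.6 (SD, n = 2), and the ms35 mean was 85.0 ± 26.1 (SD, n = 2). The difference, ms35 minus wild type on the log2(signal + 2.23) scale, was -2.61 ± 0.29 (SE), 6.11-fold lower. Of 16464 probe sets tested, 119 had a difference at least this low. Without ms35 bicellular replicate 2, the array with the second highest GAPDH ratio, the difference was -2.30, and without replicate 1 it was -2.92.

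At PMII the wild type mean was 1079 ± 401 (SD, n = 2) and the ms35 mean 283 ± 65.5 (SD, n = 2), a difference of -1.89 ± 0.29 (SE), or 3.71-fold lower. The wild type replicates were far apart here, and the difference was -2.28 without wild type PMII replicate 2 and -1.50 without replicate 1. At PMI the means were 45.4 ± 6.76 (SD, n = 2) and 55.5 ± 0.735 (SD, n = 2), and the difference was 0.28 ± 0.29, about the size of its error. Averaged over the stages, the difference was -1.41 ± 0.17 (SE).

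Along the labelled stages, wild type AT3G23840 was 11.0-fold higher at the bicellular stage than at PMI, a log2 difference of 3.46 ± 0.29 (SE). The same step in ms35 was 0.56 ± 0.29, and it ranged from 0.25 to 0.87 when either ms35 bicellular array was left out. From bicellular to PMII the difference was 1.72 ± 0.29 in ms35 and 1.00 ± 0.29 in wild type. Leaving out single arrays, that step ran from 1.41 (without ms35 bicellular replicate 2) to 2.03 in ms35, and in wild type from 0.62 without PMII replicate 1 to 1.39 without PMII replicate 2. Over the whole span from PMI to PMII, AT3G23840 was 22.0-fold higher in wild type and 4.87-fold higher in ms35. No pair of neighbours overlapped in the order of the 6 groups, which ran from high to low as wild type PMII, wild type bicellular, ms35 PMII, ms35 bicellular, ms35 PMI and wild type PMI.

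ACLA-2 had a different profile, with a single high group. Its signal in wild type was 214 and 225 at PMI, 602 and 639 at the bicellular stage, and 234 and 196 at PMII. In ms35 it was 246 and 214 at PMI, 218 and 222 at the bicellular stage, and 222 and 226 at PMII. Both wild type bicellular arrays lay above all other arrays, and the other 5 groups overlapped with their neighbours in the order of means.

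The bicellular mean of ACLA-2 in wild type was 621 ± 25.9 (SD, n = 2), and in ms35 it was 219.8 ± 3.17 (SD, n = 2). The log2 difference was -1.49 ± 0.17 (SE), 2.81-fold lower in ms35, and it stayed between -1.53 and -1.43 under every alternative setting and without each array. The genotype differences at PMI (0.06 ± 0.17) and at PMII (0.07 ± 0.17) were smaller than their errors. In wild type ACLA-2 was 2.81-fold higher at the bicellular stage than at PMI and 2.88-fold lower at PMII than at the bicellular stage. In ms35 the same steps were -0.06 ± 0.17 and 0.03 ± 0.17 on the log2 scale.

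The 2 genes therefore shared a low value in ms35 bicellular anthers relative to wild type and differed at PMII, where AT3G23840 was lower in ms35 and ACLA-2 was not. Across the 12 arrays their log2 signals correlated with r = 0.376, a value given as a description, since the arrays share 6 groups.

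Markers of other cells moved with stage beside these values. Some of their sums also differed between the genotypes, though limma called no single marker between genotypes. Of 13 listed late pollen genes 10 had a named probe set, and their summed signal at the bicellular stage was 1493 to 2320 in wild type and 3360 to 5875 in ms35, against 7604 to 7991 in wild type at PMI. Most of this sum came from AT5G45880, and without it, a setting chosen after seeing the data, the other 9 genes summed to 488 and 742 in wild type and to 722 and 1082 in ms35 at the bicellular stage, which overlap. ANX1 and ANX2, receptor kinases of the pollen tube, exceeded the low-signal limit on 4 and 2 arrays, and no marker probe set was at 0. The 4 named tapetum genes of 11 summed to 281 to 339 in wild type at PMI, 2366 to 3735 at the bicellular stage and 5392 to 5481 at PMII. In ms35 the tapetum sums were 399 to 570, 1621 to 3391 and 5301 to 9294 at the same stages, overlapping wild type at the bicellular stage and PMII.

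The array ms35 bicellular replicate 2 stood nearer to PMI than its partner, with a late pollen sum of 5875 against 3360 and a tapetum sum of 1621 against 3391. AT3G23840 was lower on that array (66.5) than on its partner (103), while ACLA-2 was almost equal on both (222 and 218). At PMII the late pollen sum was also higher on replicate 2, 1261 against 492 in wild type and 1789 against 572 in ms35. Without AT5G45880 the other 9 genes were almost equal in wild type PMII, 335 on replicate 2 against 325. In ms35 PMII they were 494 against 308. The tapetum sum of the wild type PMII pair was also close, 5481 on replicate 2 against 5392. AT3G23840 was lower on those replicate 2 arrays (795 against 1362, and 236 against 329). In the wild type bicellular pair, replicate 1 had both the higher late pollen sum (2320 against 1493) and the higher AT3G23840 signal (558 against 481). The 3 named green tissue genes of 6 summed to 1938 to 2136 in wild type bicellular arrays and to 1858 to 3433 in ms35. CR4, the single named epidermis gene of 5, exceeded the low-signal limit on 5 arrays. The part of these cell types in the values of AT3G23840 and ACLA-2 was not tested.

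**Figure D2:**
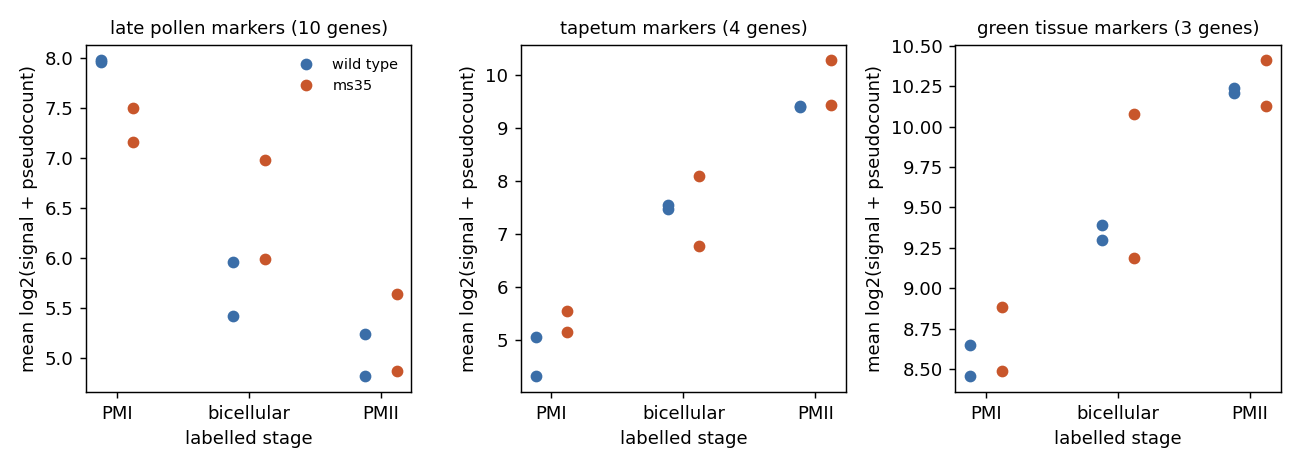
Mean log2(signal + 2.23) of the named late pollen (10 genes), tapetum (4 genes) and green tissue (3 genes) markers, 1 point per array, by labelled stage and genotype. Late pollen markers are highest at PMI, and tapetum and green tissue markers at PMII. The ms35 bicellular arrays differ from each other more than the wild type bicellular pair does.

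Between genotypes, limma called none of the tested late pollen, tapetum, green tissue or epidermis markers, averaged over the stages or at a single stage. Over all tested probe sets 5.27% were called averaged over the stages, and 2.03%, 1.77% and 0.948% at PMI, bicellular and PMII. With shares this low, the lack of calls among so few markers does not show equal levels. At the bicellular stage the median log2 difference was 0.85 for 10 late pollen, 0.09 for 4 tapetum and 0.32 for 3 green tissue genes. It was -0.19 for CR4, the epidermis gene, and 0.01 over all tested probe sets. At an unadjusted p under 0.05, 1 of the 10 late pollen genes passed at the bicellular stage, and none of the 4 tapetum genes did. At PMI 2 of the 10 late pollen genes and 1 of the 4 tapetum genes passed. Along the stages, averaged over both genotypes, 7 of 10 late pollen genes fell from PMI to bicellular. In the same step 3 of 4 tapetum genes and 3 of 3 green tissue genes rose, while 22.8% of all tested probe sets were called.

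The other subunits of ATP-citrate lyase are not members and were tested. Their list was written with earlier results of these data known, so the test is not independent of the choice of ACLA-2. Of the 3 with a named probe set, ACLA-1 and ACLB-1 fell in ms35 at the bicellular stage, none rose, and ACLA-3 did not pass. Over all probe sets, 1.77% were called at that stage and 1.37% were called lower. The median log2 difference of the 3 subunits was -0.74, against 0.01 over all tested probe sets. ACLB-2 was not analysed here.

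ACLA-1, an A subunit like ACLA-2, had signals of 2246 and 2524 in wild type bicellular arrays and of 1260 and 1287 in ms35. The groups did not overlap, and the log2 difference was -0.90 ± 0.18 (SE, adjusted p = 0.026 by limma). The call was lost without wild type bicellular replicate 1 (0.0934) or replicate 2 (0.255), without ms35 bicellular replicate 1 (0.0858) or replicate 2 (0.0970), with no filter (0.0630) and without the variance trend (0.0749). At PMII ACLA-1 was 1194 and 1076 in wild type and 1623 and 1575 in ms35, a difference of 0.50 ± 0.18 that did not pass (adjusted p = 0.309). A change of the ACLA-1 genotype effect between stages did not pass either (F test, adjusted p = 0.118).

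ACLB-1, the B subunit, had signals of 1148 and 1060 in wild type bicellular arrays and of 657 and 667 in ms35, again without overlap. Its log2 difference was -0.74 ± 0.17 (SE), just past the threshold (limma adjusted p = 0.0487). The call was lost without any single array other than wild type PMII replicate 2 (0.0503 to 0.256), with the replicate number as a block (0.0524), and in all under 16 of 19 alternatives. Averaged over the stages ACLB-1 fell by 0.41 ± 0.10 (adjusted p = 0.0275), a call that was also lost without most single arrays (up to 0.0870), the exceptions being ms35 PMII replicate 1, ms35 bicellular replicate 2 and wild type PMII replicate 2.

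ACLA-3, the remaining A subunit, had signals of 169 and 186 in wild type and 157 and 109 in ms35 at the bicellular stage, a difference of -0.43 ± 0.23 (adjusted p = 0.566). Its largest genotype difference was at PMI, at -0.79 ± 0.23 (adjusted p = 0.123). Wild type ACLA-1 was 1.18-fold higher at the bicellular stage than at PMI, and wild type ACLA-2 was 2.81-fold higher. From bicellular to PMII in wild type, ACLA-1 was 2.10-fold, ACLB-1 1.48-fold and ACLA-2 2.88-fold lower, values given as a description. No stage step of ACLA-1, ACLA-3 or ACLB-1, averaged over the genotypes, passed (adjusted p from 0.110 to 0.913). Whether ACLA-2 differed more than ACLA-1 or ACLB-1 was not tested.

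**Figure D3:**
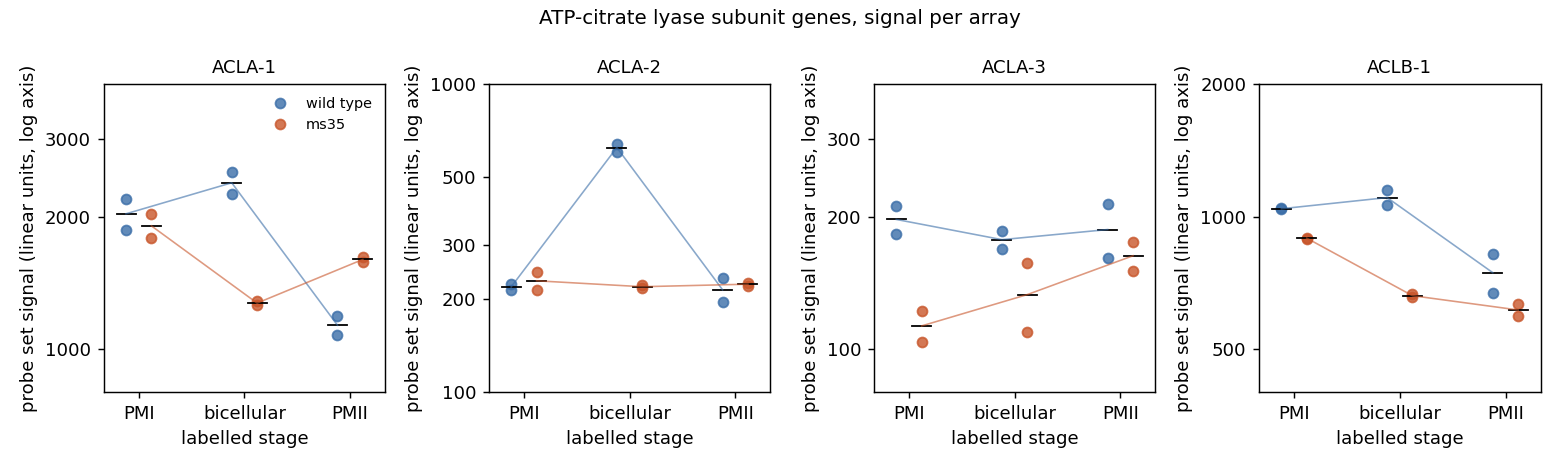
Probe set signal of 4 ATP-citrate lyase subunit genes (linear units on log axes with a separate range per gene) at the 3 labelled stages. Points are arrays and black bars are means of 2 arrays. At the bicellular stage the log2 difference, ms35 minus wild type, is -0.90 for ACLA-1, -0.74 for ACLB-1 and -0.43 for ACLA-3. The ACLA-3 difference did not pass. ACLA-2, chosen with its values known, lies at -1.49 (2.81-fold lower). Levels are not compared between genes.

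In the CER2 family, AT4G13840 (CER26), whose protein promotes fatty acid lengthening in leaves, was near background. It exceeded the low-signal limit on 2 of 12 arrays, with 27.9 in wild type PMI replicate 1 and 30.1 in wild type PMII replicate 2. Its bicellular signals were 24.1 and 19.1 in wild type and 5.78 and 4.86 in ms35, a difference of -1.65 ± 0.75 that did not pass (adjusted p = 0.460). CER2 was not analysed here.

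Among 8 lists of cuticle, sporopollenin and acetyl-CoA genes, 10 genes other than the members had a named probe set and all 10 were tested. They include ACLA-1, ACLA-3 and ACLB-1, described above. Averaged over the stages, limma called 3 of them, 2 higher and 1 lower in ms35, where 5.27% of all tested probe sets were called and 2.24% were called higher. At PMI 1 of 10 was called (2.03% of all) and at PMII 1 of 10 (0.948% of all), in both cases WSD1, higher in ms35. At the bicellular stage 3 of 10 were called (1.77% of all). These were ACLA-1 and ACLB-1, lower in ms35 and counted above, and WSD1, higher in ms35. For no gene of the 10 did the F test find a genotype effect that differed between stages, where 0.194% of all probe sets were called and 1 of the 10 had an unadjusted p under 0.05. None of the 25 fatty acid elongation genes and none of the 9 sporopollenin genes on the lists was analysed here.

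WSD1, a wax ester synthase, had the smallest adjusted p of these 10 for the averaged genotype effect. Its signal in wild type was 69.1 and 74.5 at PMI, 39.0 and 42.0 at the bicellular stage, and 23.3 and 23.1 at PMII. In ms35 it was 178 and 301, 108 and 160, and 72.1 and 76.0 at the same stages. The groups did not overlap at any stage, and WSD1 rose in ms35 by 1.63 ± 0.17 on the log2 scale averaged over the stages (adjusted p = 0.000112, at most 0.00141 over the alternatives). The differences were 1.66 ± 0.29 at PMI, 1.65 ± 0.29 at the bicellular stage and 1.58 ± 0.29 at PMII, with adjusted p of 0.0117, 0.0116 and 0.0245. Both wild type PMII arrays lay under the low-signal limit of 25.5, and with a pseudocount of 16 the PMII difference was 1.20.

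The call of WSD1 at PMI was lost without wild type PMI replicate 1 (0.0724) or 2 (0.0691) or ms35 PMI replicate 2 (0.118). At the bicellular stage it was lost without wild type replicate 1 (0.0891) or 2 (0.0916) or ms35 replicate 2 (0.107). At PMII it was lost without any of the 4 PMII arrays (0.0884 to 0.137) and without the intensity trend (0.0759).

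AT1G02190, on the wax list, was higher in ms35 by 0.62 ± 0.15 averaged over the stages (adjusted p = 0.0314). At the bicellular stage it was 143 and 163 in wild type and 188 and 261 in ms35, a difference that did not pass (adjusted p = 0.504). The averaged call was lost without the intensity trend (0.0876) and without any single array (0.0564 to 0.0917) except ms35 bicellular replicate 1 and the second replicates of wild type PMI and PMII. AT5G33370, the single named gene of the cutin list, had almost equal bicellular signals in wild type (551 and 803) and ms35 (530 and 796). Its genotype difference there was -0.03 ± 0.31 (adjusted p = 0.991).

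ACS, which encodes acetyl-CoA synthetase, another source of acetyl-CoA, was not called between genotypes. Its bicellular signals were 244 and 200 in wild type and 286 and 307 in ms35, a difference of 0.42 ± 0.19 (adjusted p = 0.429). SHN3, an activator of wax and cutin genes, had 0.28 ± 0.28 (adjusted p = 0.81) at the bicellular stage. AT5G61590 (DEWAX), a repressor of wax synthesis, was 16.5 and 22.6 in wild type and 46.7 and 38.9 in ms35 at PMI. That difference of 1.06 ± 0.33 did not pass (adjusted p = 0.153), and both wild type arrays lay under the low-signal limit.

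**Figure D4:**
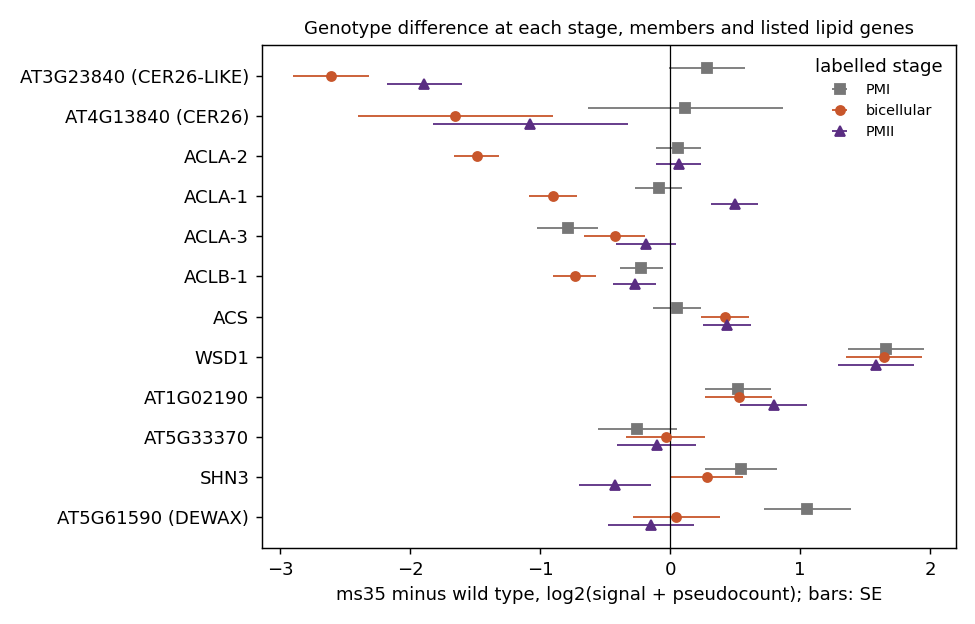
Difference between ms35 and wild type on the log2(signal + 2.23) scale for AT3G23840, ACLA-2 and the 10 listed lipid genes at each labelled stage, with SE bars from the fit. AT3G23840 lies at -2.61 and ACLA-2 at -1.49 at the bicellular stage, while WSD1 lies between 1.58 and 1.66 at all 3 stages.

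Along the stages, averaged over both genotypes, limma called 3 of the 10 genes from PMI to bicellular, all lower, a share near the 22.8% called among all tested probe sets. AT5G33370 fell by 1.50 ± 0.22 (adjusted p = 0.000660), WSD1 fell by 0.80 ± 0.21 (0.0157) and ACS fell by 0.47 ± 0.13 (0.0226). None of the 10 rose in this step, in which AT3G23840 was 4.02-fold and ACLA-2 1.64-fold higher on average over the genotypes. The median of all tested probe sets was 0.11 higher on the log2 scale at the bicellular stage than at PMI. ACS lost its call without ms35 bicellular replicate 1 (0.0676), wild type PMI replicate 2 (0.0867), wild type bicellular replicate 2 (0.0939) or ms35 PMI replicate 2 (0.0713), and without the intensity trend (0.0552). WSD1 lost it without ms35 bicellular replicate 1 (0.0667) or ms35 PMI replicate 2 (0.0723).

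From bicellular to PMII, 4 of the 10 were called, 3 higher and 1 lower, where 7.14% of all tested probe sets were called. AT5G33370 rose by 1.35 ± 0.22 (adjusted p = 0.00608), and its PMII values were near those at PMI. DEWAX (AT5G61590) rose by 0.95 ± 0.24 (0.0327), SHN3 rose by 0.74 ± 0.20 (0.0418) and WSD1 fell by 0.78 ± 0.21 (0.0415). AT5G33370 kept its call without each array.

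The other 3 calls of this step rested on single arrays. SHN3 lost its call without any array (0.0526 to 0.180) except ms35 bicellular replicate 1 and ms35 PMII replicate 2. WSD1 lost its call without any array (0.0574 to 0.151) except ms35 PMI replicates 1 and 2 and ms35 bicellular replicate 1. The DEWAX (AT5G61590) call was lost without wild type bicellular replicate 1 (0.112) or 2 (0.0674), wild type PMII replicate 1 (0.0619) or 2 (0.102), ms35 PMII replicate 1 (0.143) or ms35 bicellular replicate 2 (0.111). All 3 were also lost with no filter (0.0538 to 0.0676) and without the intensity trend (0.0645 to 0.0805), and SHN3 with quantile normalization (0.0518) and median centring (0.0607).

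Within the BAHD superfamily, whose enzymes transfer acyl groups from CoA, 44 of 58 listed genes had a named probe set and 20 besides AT3G23840 were tested. At the bicellular stage 1 of the 20, HCT of lignin synthesis, fell in ms35 and none rose, where 1.37% of all tested probe sets were called lower. The median difference of the 20 was -0.26. HCT was 645 and 676 in wild type and 155 and 161 in ms35 at that stage (-2.05 ± 0.25, adjusted p = 0.000836). At PMI HCT was also lower in ms35 (-2.64 ± 0.25, limma adjusted p = 0.000188), whereas AT3G23840 had 0.28 ± 0.29. HCT was 1 of 2 BAHD genes called at PMI (2.03% of all probe sets). The other, AT5G07860, was higher in ms35 (2.32 ± 0.49, limma adjusted p = 0.0307), a call lost without the intensity trend. Averaged over the stages 3 of the 20 were called, 2 higher and 1 lower in ms35 (5.27% of all). At PMII the difference was -0.73 ± 0.25 for HCT (adjusted p = 0.253) and -1.89 ± 0.29 for AT3G23840.

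AT4G29250, another gene of the BAHD list, is named after its values were seen. Its signal in wild type was 4.89 and 11.5 at PMI, 70.4 and 96.4 at the bicellular stage, and 649 and 626 at PMII. In ms35 it was 11.5 and 3.48, 37.3 and 3.22, and 633 and 188 at the same stages. It rose by 3.74 ± 0.57 from bicellular to PMII (limma adjusted p = 0.00499), and its bicellular genotype difference of -2.53 ± 0.80 did not pass (adjusted p = 0.203), with ms35 replicates that lay far apart.

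Of 8 tested genes of plastid fatty acid synthesis, the pathway that makes the chains to be lengthened, none was called between genotypes at any stage (limma, with 2 at PMI and 1 at the bicellular stage at an unadjusted p under 0.05). From PMI to bicellular, averaged over the genotypes, 1 of the 8 rose and 1 fell, where 22.8% of all tested probe sets were called. AT2G22230 rose by 0.61 on the log2 scale, a call kept under all 19 alternatives. FATB, the thioesterase that releases saturated fatty acids, was called between stages and not between genotypes. It fell by 0.86 ± 0.16 from PMI to bicellular (adjusted p = 0.00307), and its bicellular genotype difference was 0.20 ± 0.23 (adjusted p = 0.842). The single tested gene of citrate metabolism, cICDH, a cytosolic isocitrate dehydrogenase, had 0.13 ± 0.20 at the bicellular stage (adjusted p = 0.901). Neither of the 2 tested isoprenoid genes was called between genotypes by limma at any stage, and 1 of them had an unadjusted p under 0.05 at PMI and 1 at PMII.

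The probe sets most like each member were found by Pearson correlation of log2 signal over the 12 arrays among 9200 other single-gene probe sets, and the correlations are descriptions of arrays that share groups. For AT3G23840 they were AT1G22885 (r = 0.962), ALDH11A3 (r = 0.952), AT5G05640 (r = 0.951), AT5G47020 (r = 0.946) and AT4G21110 (r = 0.946). The signal of AT1G22885 was 42.7 and 32.8 at PMI, 204 and 145 at the bicellular stage and 398 and 297 at PMII in wild type, and 41.6 and 39.5, 90.6 and 67.8, and 85.1 and 114 in ms35. ALDH11A3, a cytosolic non-phosphorylating glyceraldehyde-3-phosphate dehydrogenase, had wild type means of 371, 651 and 725 and ms35 means of 378, 468 and 609 at the 3 stages.

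For ACLA-2 the closest probe sets were CW14 (r = 0.897), AT2G41770 (r = 0.883), AT3G58600 (r = 0.882), AT3G57490 (r = 0.880) and GUT2 (r = 0.878). All 5 had their highest group mean in wild type bicellular anthers. AT2G41770 was 147 and 176 there and 59.4 and 53.9 in ms35. GUT2, which takes part in xylan synthesis in secondary walls, was 123 and 206 in wild type and 24.0 and 53.6 in ms35.

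**Figure D5:**
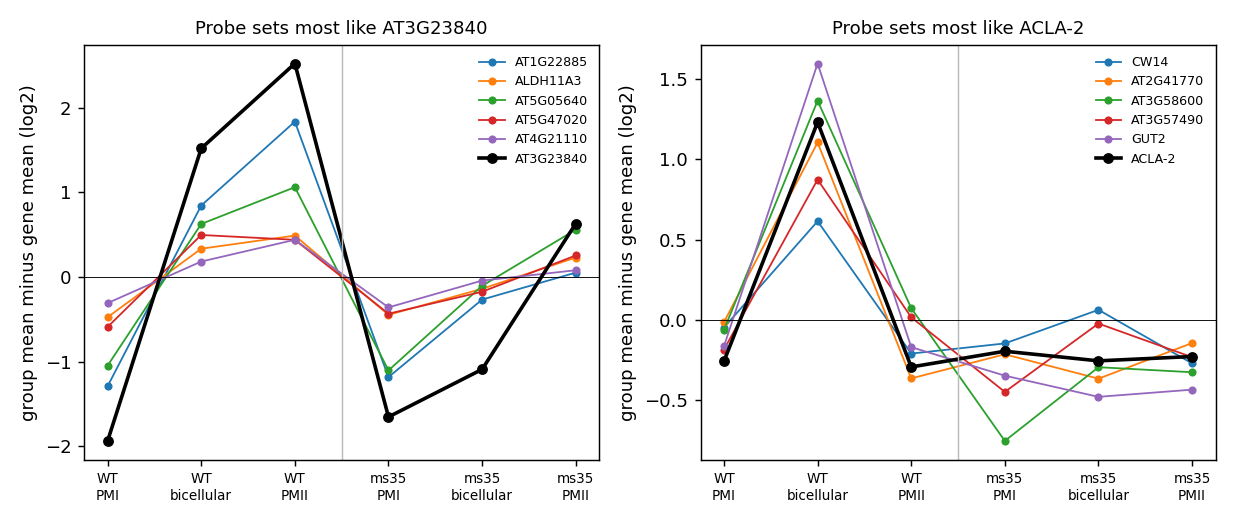
Group means of log2(signal + 2.23), each minus the mean over the 6 groups, for AT3G23840 and ACLA-2 (black) and the 5 single-gene probe sets most correlated with each over 12 arrays. In the left set all but AT5G47020 have wild type means that are lowest at PMI and highest at PMII. The right set peaks in wild type bicellular anthers.

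Genotype calls were also counted among loci numbered near the members, and the differences between these shares were not tested. In the window of 5000 locus numbers that holds AT3G23840 on chromosome 3, 8 of 178 other tested loci were called for the averaged genotype effect (4.49%), against 4.88% of all 8998 loci, 1 of 178 was called at the bicellular stage (0.562%), and 4 of 178 were called at PMI (2.25%, against 1.62% of all). In the window that holds ACLA-2 on chromosome 1, 3 of 168 other loci were called for the averaged effect (1.79%) and 3 at the bicellular stage (1.79%), against 1.51% of all loci at that stage.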

How the data were processed

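Signals of 12 single-colour ATH1 arrays were analysed. The deposited files give intensity, linear and with 1 value per probe set, made with MAS5 and GCOS per the submitters' processing notes, with versions not given in the sources used here. From the values, each array had been scaled to a trimmed mean of 100.01. The pseudocount of 2.23 is the 10th percentile of the 22746 values per array pooled over arrays, and a fold on the log2(signal + 2.23) scale understates changes of dim genes. Probe sets above 25.5 (the 40th percentile) on at least 2 arrays were tested, 16464 in all. The fit used limma 3.58.1 in R 4.3.3: 6 group means, all 12 arrays, an intensity trend, 6 residual degrees of freedom, and Benjamini-Hochberg adjustment over all tested probe sets with a threshold of 0.05. It was tried on simulated data with independent noise and changes in the ms35 bicellular arrays only, which leaves out any pairing of same-numbered arrays.

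Genes were named through the platform annotation, updated by gene identifier to a TAIR10.1 gene table (13436 of 13513 matched), used for names and locus order only. It gave several genes to 503 probe sets, which were not named, and none to 8730. Of 135 genes on the lists written first, 30 had a named probe set. The members and lists were chosen with earlier results of these data known, and the BAHD, plastid fatty acid, citrate and isoprenoid lists after the annotation was seen. Named genes were the members, the family and subunit genes, from each list up to 4 called genes or else the 1 with the largest difference, and the 5 probe sets most correlated with each member. AT2G22230, AT4G29250, cICDH, FATB, HCT and values beside them were chosen after their values were seen. Alternatives were quantile normalization, median centring, a pseudocount of 16, no filter, a stricter filter at 61.8 (the 60th percentile), the replicate number as a block, no intensity trend, and leaving out each array. The number of arrays limits the precision.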

Additional observations from a re-analysis of the deposited data

Results flagged for a closer look

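AT3G23840 was singled out because its genotype difference ran in opposite directions at different stages. Both ms35 arrays lay above both wild type arrays at PMI (log2 difference 0.28) and below them at the bicellular stage (-2.61) and at PMII (-1.89). The difference between stages was not tested, because the gene was chosen with these values known, and at PMI the difference was about the size of its standard error (0.29).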

How the results depend on the processing

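The differences of both members kept their direction at every stage where they exceeded their error, under all 19 alternatives. For AT3G23840 the bicellular difference ran from -2.92 to -2.30 and the PMII difference from -2.28 to -1.50, and the bicellular difference of ACLA-2 ran from -1.53 to -1.43. Counts over all probe sets, leaving out single arrays, ran from 588 to 841 for the averaged genotype effect (868 with all arrays), 127 to 359 at PMI (335), 97 to 287 at bicellular (291), 45 to 178 at PMII (156), 2395 to 3878 from PMI to bicellular (3755), 343 to 1494 from bicellular to PMII (1176) and 6 to 55 for the F test (32). Among the 10 lipid genes they ran from 1 to 3 for the averaged effect, 0 to 1 at PMI and likewise 0 to 1 at PMII, 0 to 3 at bicellular, 1 to 4 from PMI to bicellular and 1 to 4 from bicellular to PMII. Without the intensity trend the counts over all probe sets were 179 at PMI, 57 at PMII, 230 from bicellular to PMII and 0 for the F test (1360 at an unadjusted p under 0.05), and those among the 10 genes were 1 for the averaged effect, 1 at bicellular, 0 at PMII and 1 from bicellular to PMII. With no filter, 1 of the 10 was called at bicellular and 1 from bicellular to PMII. The F test called 15 probe sets with median centring and 70 with a pseudocount of 16. The cause of these shifts was not tested. Same-numbered arrays deviated together with r over 0.1 in 4 of 15 pairs of groups (-0.126 to 0.182). The highest values joined wild type PMII with ms35 PMI (0.182) and with ms35 bicellular (0.176). In these groups replicate 2 had the top GAPDH ratios. Whether replicate numbers pair part of the arrays was not tested. With the replicate block the counts were 970 for the averaged effect, 388, 301 and 173 at the 3 stages in order, 3886 and 1295 for the stage steps and 44 for the F test, and among the genes described ACLB-1 lost its bicellular call (0.0524). With 2 arrays a group, a call at 1 stage rests on 4 arrays, and dim probe sets such as AT4G13840 lie mostly under the low-signal limit.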
